A study of Mus musculus with 2 samples.

Results

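Distal CpG-rich regions are stretches of DNA that resemble the CpG islands of promoters but lie away from annotated gene starts. They are also called orphan CpG islands. They were taken from the H3K4me3 regions that the authors deposited for the whole series on the mouse build mm9 (NCBIM37), called the series list here. A region was a member when it lay more than 5 kb from every GENCODE vM1 transcription start site (TSS) of any transcript type. It also had to hold a window of 500 bp whose GC content was over 55% and whose CpG ratio, observed over expected, was above 0.75. Of 64140 regions in the series list, 36959 were distal and 1505 of these were members, which is 4.07% of the distal regions. The remaining 35454 distal regions held no such window, and 34293 of them were at least 600 bp wide, the width of the narrowest member. The set of 34293 is called the other distal regions below. A further 10665 CpG-rich regions held an annotated TSS.

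The study profiled H3K4me3 by chromatin immunoprecipitation followed by sequencing (ChIP-seq) in E14TG2a.4 cells, an embryonic stem cell line from a male mouse of strain 129/Ola, with the labelled stage embryonic, 3.5 day. There was 1 group of 2 biological replicates, both of the same line, and the labels name no treatment and no second condition. No comparison between conditions could be made, so all results are counts, shares and medians without a test, and regions are not replicates of one another. The replicate lists held 58875 and 52424 regions, and the sequencing depth behind them is unknown.

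CpG islands are stretches in which the dinucleotide CpG has been kept at a density that most of the mammalian genome has lost, because methylated cytosines tend to mutate. Most islands lie at promoters, are free of DNA methylation and carry H3K4me3, which is written by SET1 and MLL complexes. Some of these complexes are brought to unmethylated CpGs by CXXC-domain proteins such as CFP1. Orphan islands are known to include starts of unannotated or tissue-specific transcripts, and some lie beside enhancers of developmental genes.

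The kind of DNA that carried the mark is shown by stretches of 300 bases on the + strand of NCBIM37, each the stretch with the most CpGs in its region, with every CpG in capitals. The first 3 come from strong intergenic members. The first lies 102 kb from Irx5, a homeobox gene, the next 34.03 kb from any annotated TSS, and the third, on the X chromosome, had no RefSeq gene start within 5 kb.
chr8:94984600-94984899: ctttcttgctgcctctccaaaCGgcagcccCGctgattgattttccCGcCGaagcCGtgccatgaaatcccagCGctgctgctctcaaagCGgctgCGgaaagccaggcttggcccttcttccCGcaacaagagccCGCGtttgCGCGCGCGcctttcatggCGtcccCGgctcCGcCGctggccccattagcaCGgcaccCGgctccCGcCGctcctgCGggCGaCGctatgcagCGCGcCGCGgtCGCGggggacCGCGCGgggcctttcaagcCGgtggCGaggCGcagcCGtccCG
chr15:85501041-85501340: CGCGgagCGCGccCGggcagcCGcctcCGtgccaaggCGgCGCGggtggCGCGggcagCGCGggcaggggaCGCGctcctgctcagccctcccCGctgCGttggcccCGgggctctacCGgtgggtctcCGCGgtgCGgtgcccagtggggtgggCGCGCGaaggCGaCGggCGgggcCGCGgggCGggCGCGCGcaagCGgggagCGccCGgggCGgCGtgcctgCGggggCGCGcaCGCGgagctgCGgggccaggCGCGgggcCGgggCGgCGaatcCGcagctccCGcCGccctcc
chrX:109008553-109008852: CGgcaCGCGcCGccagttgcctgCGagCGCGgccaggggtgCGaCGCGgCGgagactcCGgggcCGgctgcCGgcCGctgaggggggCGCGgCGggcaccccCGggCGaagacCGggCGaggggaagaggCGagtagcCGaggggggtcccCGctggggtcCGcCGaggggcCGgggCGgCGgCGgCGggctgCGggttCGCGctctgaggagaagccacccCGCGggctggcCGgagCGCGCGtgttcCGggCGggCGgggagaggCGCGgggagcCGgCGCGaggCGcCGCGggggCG
These hold 40, 54 and 53 CpGs. Their regions had signals of 63.6, 61.2 and 41.4, where signal is the authors' enrichment ratio for the whole region. A value given for a replicate is the highest signal among the regions of that replicate's list that overlap the region.
The next stretch lies in coding sequence of Klhl31, which encodes a kelch-like protein of muscle, and holds 46 CpGs. Its region had a signal of 49.9.
chr9:77503109-77503408: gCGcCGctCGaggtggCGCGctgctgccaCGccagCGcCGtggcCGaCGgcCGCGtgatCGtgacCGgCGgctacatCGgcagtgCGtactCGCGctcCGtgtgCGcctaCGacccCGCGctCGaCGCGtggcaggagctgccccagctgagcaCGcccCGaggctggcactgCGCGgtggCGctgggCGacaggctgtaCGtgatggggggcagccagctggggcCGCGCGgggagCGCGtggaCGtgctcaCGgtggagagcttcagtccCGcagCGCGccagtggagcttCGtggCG
A member of median signal, 7.61, is shown for contrast, and its stretch holds 25 CpGs.
chr13:23488137-23488436: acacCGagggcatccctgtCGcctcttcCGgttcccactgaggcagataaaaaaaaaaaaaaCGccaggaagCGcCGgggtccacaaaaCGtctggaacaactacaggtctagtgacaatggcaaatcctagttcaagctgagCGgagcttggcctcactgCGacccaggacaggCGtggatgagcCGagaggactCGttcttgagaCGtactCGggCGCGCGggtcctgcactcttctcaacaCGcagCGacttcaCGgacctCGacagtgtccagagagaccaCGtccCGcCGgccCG
The strongest of the other distal regions that could be printed is shown as well. The stretch, from coding sequence of Iqsec2, an exchange factor of synapses, holds 12 CpGs. Its region had a signal of 51.5, with 59.0 in replicate 1 and 10.8 in replicate 2, so the replicates were more than 2-fold apart.
chrX:148643462-148643761: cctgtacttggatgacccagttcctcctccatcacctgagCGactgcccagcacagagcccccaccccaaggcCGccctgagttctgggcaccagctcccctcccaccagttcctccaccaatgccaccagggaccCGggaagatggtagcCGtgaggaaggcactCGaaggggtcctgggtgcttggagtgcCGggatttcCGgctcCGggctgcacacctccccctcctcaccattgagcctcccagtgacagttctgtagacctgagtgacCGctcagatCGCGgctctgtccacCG

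Members were nearly always found again in each replicate. Regions of the replicate 1 list overlapped 1481 members (98.4%) and regions of the replicate 2 list overlapped 1466 (97.4%), against 85.5% and 78.4% of all regions in the series list. The series list and the replicate lists come from the same 2 samples and are not independent. Both replicates had a region at 1457 members (96.8%, Wilson 95% interval 95.8 to 97.6%, which covers counting error only). The share was 73.7% of all regions, 66.7% of the other distal regions and 99.9% of the CpG-rich regions at a TSS. Replicate 1 alone had a region at 24 members, replicate 2 alone at 9, and neither at 15. Where the rule was applied to each replicate list on its own, it gave 1433 and 1414 members, a mean of 1423.5 ± 13.4 (SD, n = 2).

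Signal is related to whether a region was found again, so the shares were also set side by side within quartile classes of the signal of the whole list. In the lowest class 90.2% of 163 members were found in both replicates and 38.7% of 11643 other distal regions. In the second class the shares were 92.7% and 66.6%, in the third 99.2% and 89.9%, and in the highest 99.6% and 99.5%. The members' share was thus the higher one at low signal, and the shares met at high signal. Width was not held fixed within these classes. By width alone, the shares were 86.6% of members and 56.8% of other distal regions at 600 to 1000 bp. They were 98.1% and 83.4% at 2200 to 4000 bp, and 99.8% and 98.7% above 4000 bp.

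The signal of members lay between that of other distal regions and that of promoter islands. In a population of cells, a mark in fewer cells and a lower level per cell cannot be told apart. The median was 7.61 for members, with 10% of them below 2.93 and 10% above 20.7. It was 3.66 for other distal regions, 17.2 for CpG-rich regions at a TSS and 8.87 for the 653 CpG-rich regions near but not at a TSS. In the replicates' own lists the members had medians of 9.36 and 8.34 (mean 8.85 ± 0.721, SD, n = 2) and the other distal regions 4.32 and 4.41 (mean 4.36 ± 0.0626). Members lay at or above the upper quartile of the whole list in 458 cases (30.4%), against 25% of all regions by construction and 13.2% of other distal regions. Members were also wider, with a median of 2400 bp against 1400 bp, and all region edges lay on a grid of 200 bp.

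The gap between the medians depended on how strong a region had to be. Only regions with a q-value at or below the median of the list were then kept. Among these, 1351 members had a median signal of 8.45 and 12413 other distal regions 8.59. The difference of -0.145 was smaller in size than the replicate SD of the main difference, 0.783, so the medians were close. The share found in both replicates was then 99.7% and 99.9%. Among the regions kept, 26.2% of the other distal ones had a window whose sequence occurs more than 1000 times in the genome, and those had a median of 18.4. With single-copy windows the kept members had a median of 11.2 (n = 820) and the kept other distal regions 5.76 (n = 5304).

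**Figure D1:**
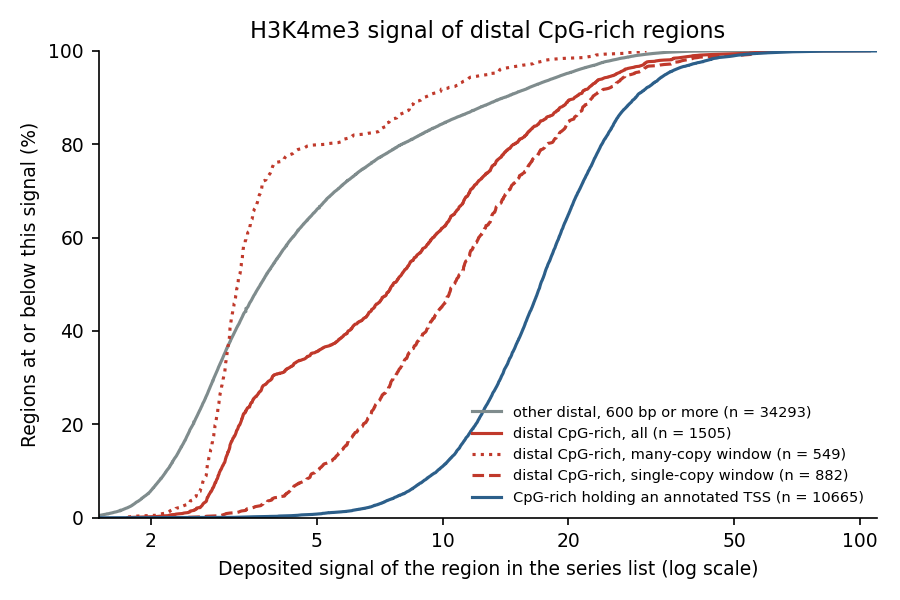
Cumulative share of regions (y axis, %) by deposited signal in the series list (x axis, log scale) for distal CpG-rich regions, for those with single-copy and with many-copy windows, for other distal regions of 600 bp or more and for CpG-rich regions holding an annotated TSS. The median of all members is 7.61, and the single-copy and many-copy members lie on either side of it, with medians of 10.7 and 3.23.

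The members held both unique and repeated DNA. For the most CpG-rich window of each region, the number of places in the genome where its stretches of 30 bases occur was counted on both strands, and the median over the window is called its copies. A window was single-copy in 882 members (58.6%), against 75.6% of all regions with a window and 63.1% of other distal regions. It had more than 10 copies in 549 members (36.5%), against 18.8% of all regions and 30.6% of other distal regions. In 74 members it had over 1 and up to 10 copies. The members' shares were thus nearer to those of other distal regions than to those of all regions. The single-copy members had a median signal of 10.7, a width of 2000 bp and a window GC of 65%. The many-copy members had a median signal of 3.23, a width of 4600 bp and a window GC of 56.2%. The other distal regions were not ordered this way, since 21640 single-copy ones had a median signal of 3.38 and 10509 many-copy ones 7.59. The placing of reads that match several sites, a step of the authors, remains not given in the sources used here. Its part in these values was not tested.

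Many-copy members were few families of repeated sequence. When windows that shared a stretch of 30 bases were joined, 281 of the 549 fell into 1 family, and the next families held 112, 89 and 49. The largest family was uniform: median signal 3.07 with 10% of its members below 2.72 and 10% above 3.58, median width 6200 bp and a median of 376 copies. It was found in both replicates for 280 of 281 members. The family of 89 had a median signal of 5.77 and that of 49 had 9.14, so the families differed in level. None of the 549 windows fell in coding sequence, and of the many-copy windows of other distal regions 1 of 10509 did. The strongest many-copy member, chr4:72955401-72958000, had a signal of 30.7, with 36.3 in replicate 1 and 34.9 in replicate 2.

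The replicates ranked the members alike. Across the 1457 members found in both, Spearman's rho of the replicate signals was 0.918, and across other distal regions found in both it was 0.903. These are descriptions over regions of the same 2 libraries. A replicate value was the highest signal among the overlapping regions of that list, each with its own edges. The part of differing edges in these values was not tested. The signals were more than 2-fold apart for 67 members (4.60%), and replicate 1 had the higher value for 897 (61.6%). For other distal regions these shares were close, 3.46% and 59.2%.

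**Figure D2:**
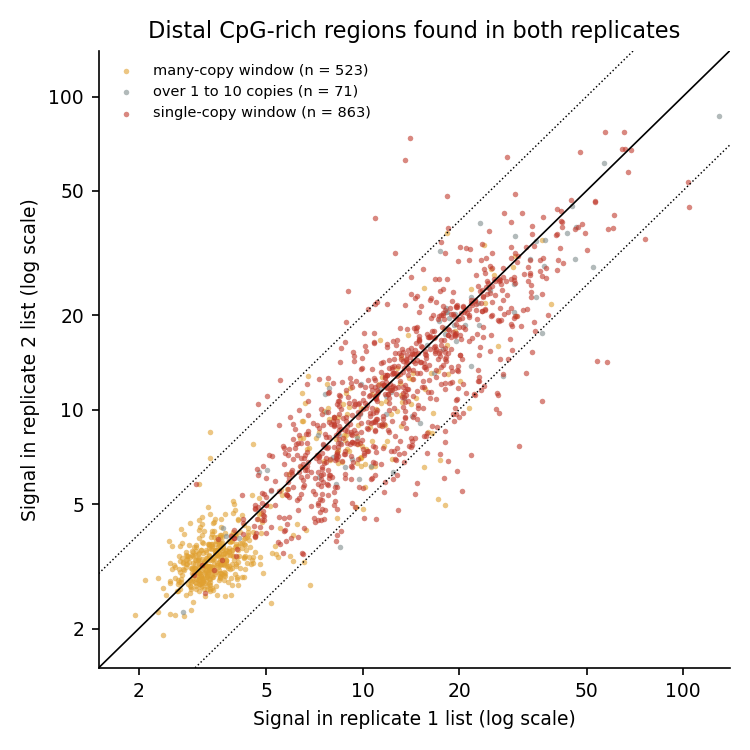
Signal of each distal CpG-rich region found in both replicates, in the replicate 1 list (x axis) and the replicate 2 list (y axis), both on log scales, coloured by copies of its window; the solid line marks equal values and the dotted lines a 2-fold difference. Of 1457 points, 67 lie outside the dotted lines, and most many-copy points sit together at low signal.

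Single-copy members had the higher medians at every width. In the width classes 600 to 1000 bp, 1200 to 2000 bp and 2200 to 4000 bp, single-copy members had medians of 10.5, 11.2 and 11.0, and single-copy other distal regions had 3.83, 3.06 and 3.23. Above 4000 bp the medians were 8.11 and 3.82. Over all members this last class stood apart with a median of 3.21 (n = 443), and 109 of the 443 were single-copy.

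Signal went with the base composition of the window. Among single-copy members, the 98 with a window GC of 55 to 57% had a median signal of 6.25. The medians were 7.64 at 57 to 60% (n = 144), 8.95 at 60 to 65% (n = 200), 11.6 at 65 to 70% (n = 204) and 16.5 above 70% (n = 236). Replicate 1 gave 7.22 in the lowest class and 20.0 in the highest, and replicate 2 gave 6.99 and 19.5. Each class thus had a higher median than the one before it in GC, in both replicates. The share found in both replicates was 85.7% in the lowest class and at least 99.0% in the others. Across the 882 members, Spearman's rho with signal was 0.584 for GC, 0.573 for the number of CpGs in the window and 0.352 for the CpG ratio, while it was -0.08 for region width. These points share the same libraries and windows, and the quantities are related by construction. Across CpG-rich regions at a TSS the rho for GC was 0.263.

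**Figure D3:**
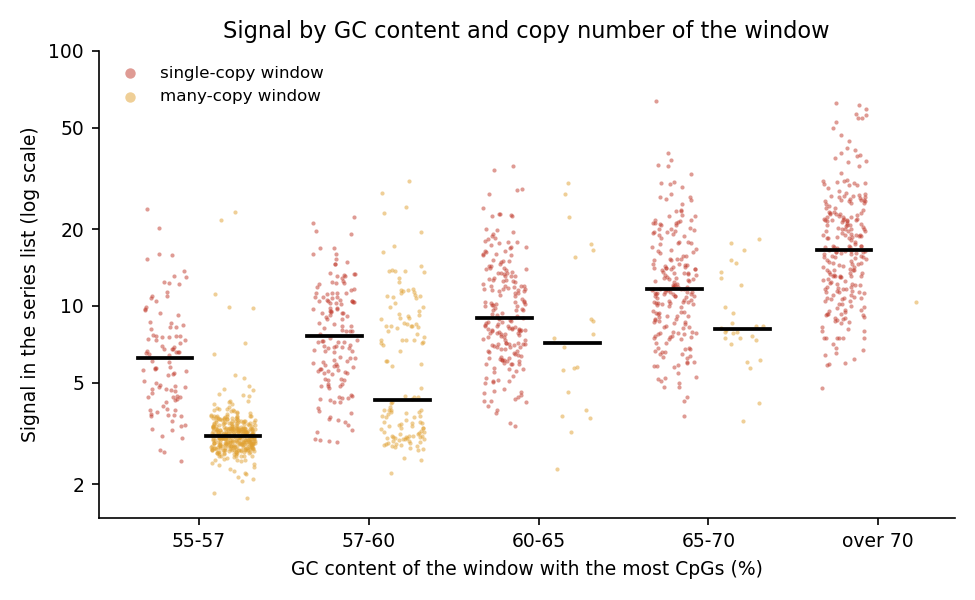
Signal in the series list (y axis, log scale) of each distal CpG-rich region by GC class of its window with the most CpGs (x axis, %), for single-copy and many-copy windows; black lines are medians and are drawn for classes of 5 or more. Single-copy medians run from 6.25 to 16.5, and 368 of the many-copy regions sit in the lowest class with a median of 3.09.

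Values just inside and just outside the limits of the rule are given as a description. Single-copy members with a ratio of 0.75 to 0.80 had a median signal of 8.06 (n = 205), and single-copy distal regions just outside, at 0.70 to 0.75, had 7.60 (n = 243). The remaining single-copy other distal regions had 3.38 (n = 21397), and regions that fell short in GC are not set apart in these bands. Over all copies the band just outside had a median of 12.2 (n = 713) and the band just inside 7.51 (n = 318). The members nearest to the ratio limit had signals of 16.5, 23.3 and 4.07, and the regions just outside it 14.5, 9.26 and 6.91. A looser rule, with a ratio over 0.6 and a GC over 50%, gave 9531 members. A stricter one, with 0.85 and 60%, gave 464, and the median signal of members then exceeded that of other distal regions by 9.92 instead of 3.94. The members nearest to the distance limit, at 5040, 5045 and 5062 bp, had signals of 5.21, 7.42 and 4.47, and the CpG-rich regions just outside it, at 4995, 4960 and 4943 bp, had 2.87, 19.4 and 7.07. The members nearest to the GC limit, at 55.2%, had 9.88, 3.11 and 6.68, and the regions at 55% had 2.5, 2.62 and 3.38.

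Members were also viewed from the genome. Windows that meet the composition rule were joined into islands over all of NCBIM37, and 13883 of 14615 islands (95%) overlapped a region of the series list. Among islands that hold a TSS the share was 98.8% of 10612, and among the 2240 distal islands it was 79.4% (1778, Wilson 95% interval 77.6 to 81.0%). The replicate lists gave 75% and 74.1% of the distal islands (mean 74.5% ± 0.663, SD, n = 2). Regions of the series list covered 3.47% of all sequenced bases more than 5 kb from a TSS. Most distal islands thus carried a region.

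Among single-copy islands the share went with GC for distal islands and little for promoter islands. Of single-copy distal islands, 63.5% had a region at a GC of 55 to 57%, 80.0% at 57 to 60%, 87.5% at 60 to 65%, 96.3% at 65 to 70% and 99.2% above 70%. Of single-copy islands at a TSS, 97.5% had a region in the lowest class and 99.6% in the highest. The gap between distal and TSS islands was therefore 33.96 percentage points at the lowest GC and 0.420 at the highest. The 159 single-copy distal islands without a region had a median of 28 CpGs in their window, against 44 for the 1016 with one. Over distal islands of any copies the shares in the 5 GC classes were 75.8%, 71.5%, 74.5%, 90.2% and 98.2%, so they did not rise over the lowest 3. A distal island without a region is one where nothing passed the authors' threshold, at a depth that is unknown.

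**Figure D4:**
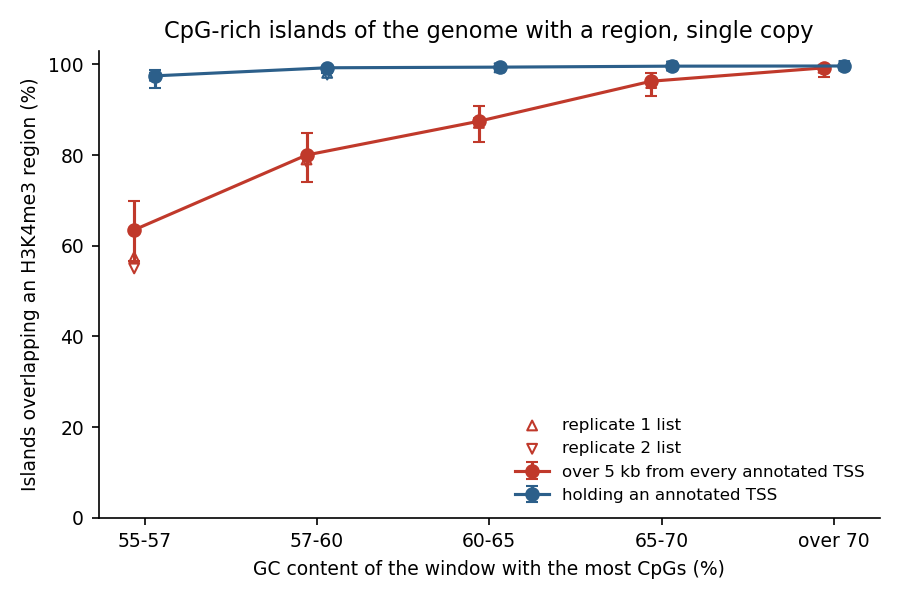
Percent of single-copy CpG-rich islands of the genome that overlap an H3K4me3 region (y axis) by GC class (x axis, %), for islands more than 5 kb from every annotated TSS and for islands holding one; filled points are the series list with Wilson 95% intervals, and open triangles are the replicate lists. The distal line runs from 63.5% to 99.2%, and the TSS line stays between 97.5% and 99.6%.

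The share also differed by copies. A region was found at 86.5% of 1175 single-copy distal islands, at 42.5% of 214 with over 1 and up to 10 copies, at 62.1% of 435 with over 10 to 100 copies and at 96.4% of 416 with more than 100 copies. In the replicate lists the last share was 91.8% and 91.3%.

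Most members lay between genes. The midpoint of the window was intergenic in 990 members (65.8%), in an intron in 273 (18.1%) and in coding sequence in 219 (14.6%). It fell in a 3′ UTR in 14, a 5′ UTR in 1 and a noncoding exon in 8. Gene bodies held 515 members (34.2%), against 55.7% of all regions and 39.3% of other distal regions. The split changed with copies. Coding sequence held 217 of the 882 single-copy members (24.6%), against 14.0% of all single-copy regions, 10.9% of all regions and 6.37% of single-copy other distal regions.

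The coding members sat late in their genes, as did coding regions of the other distal set to a lesser degree. Inside protein-coding genes, the windows of all 484 members lay at a median of 70.9% of the way from the start to the end of the gene, and 43.2% of them in the last 20%. For the 12812 other distal regions in such genes these were 53.7% and 23.3%. In coding sequence the medians were 89.98% for the 219 members and 80.2% for 1397 other distal regions, with 69.9% and 50.2% in the last 20% of the gene. In introns they were 47.7% and 48.6%. The difference between the sets was thus seen in coding sequence and hardly in introns, and it was not tested. Both sets leave out the 5 kb around every annotated start. Distal islands in coding sequence had a region in 259 of 271 cases (95.6%), against 71.6% of islands in introns and 78.4% of intergenic ones. With single-copy islands alone the shares were 95.5%, 75.4% and 85.8%.

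**Figure D5:**
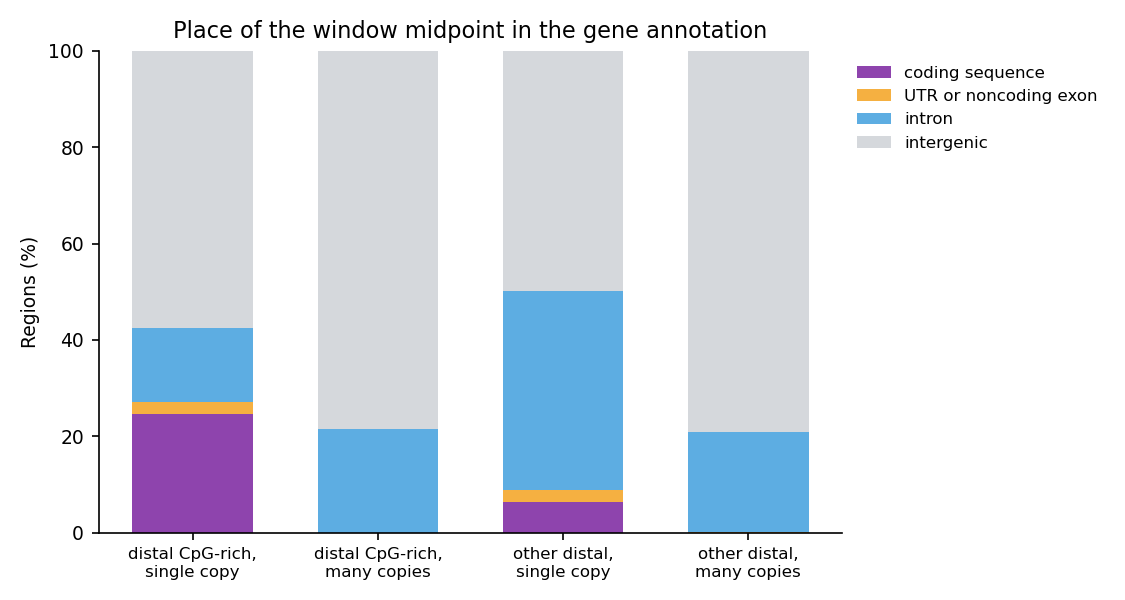
Percent of regions (y axis) whose window midpoint lies in coding sequence, in a UTR or noncoding exon, in an intron or between genes, for distal CpG-rich and other distal regions with single-copy or many-copy windows. Coding sequence holds 24.6% of single-copy distal CpG-rich regions and none of the many-copy ones.

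The strongest coding members lay in genes of varied function. In Otp, a homeobox gene of hypothalamic neurons, chr13:95652601-95654400 had a signal of 54.6, with 58.4 in replicate 1 and 37.8 in replicate 2. In Klhl31, shown above, chr9:77502601-77504000 had 69.0 and 67.7 in the replicates. In Zfp697, a zinc finger gene, chr3:98230801-98232800 had 46.7, with 53.2 and 46.0. All 3 stood far above the median member in both replicates, but they were picked by their signal in a list from the same samples. In Rims1, which encodes a protein of the presynaptic active zone, chr1:22539601-22541200 had 44.4, with 48.6 and 39.1. In Sobp, chr10:42740601-42742600 had 39.7, with 41.6 and 43.1. In Smad6, an inhibitor of BMP signalling, chr9:63801201-63802000 had 33.9, with 36.5 and 30.4, at 99.0% of the gene. In Kcnk12, a potassium channel gene, chr17:88144601-88146400 had 31.2, with 37.4 and 28.3. The windows in Smad6 and Kcnk12 thus lay at the far end of their genes. In Plin1, which encodes a coat protein of lipid droplets, chr7:86866001-86867000 had 32.7, with 40.0 and 36.2.

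Among introns the strongest member was chr1:91476201-91479000 in Agap1, which encodes a GTPase-activating protein of membrane traffic. It had a signal of 52.5, with 104.4 in replicate 1 and 44.2 in replicate 2, more than 2-fold apart. Qualifying windows covered the greatest length, 4400 bp in total, in a member at an intron of Bcor, a corepressor of Polycomb complexes. That region, chrX:11663601-11669400, had a signal of 20.8, with 21.5 and 21.0 in the replicates.

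Of the intergenic members, the strongest was chr18:11429801-11430400, 361 kb from the nearest TSS, that of Rbbp8. It had a signal of 105.3, with 130.0 in replicate 1 and 86.4 in replicate 2, was 600 bp wide and had a window with 2 copies. The next, chr8:94984001-94985200 near Irx5, had 64.5 and 67.9 in the replicates. The member chr8:111227201-111229400, 9.14 kb from Zfhx3, a homeobox gene, had 65.7 and 67.8. These regions were high in both replicates, but they were picked by their signal in a list from the same samples. The widest member, chr17:27384601-27418600, spanned 34000 bp with a low signal of 2.39, 3.02 in replicate 1 and 2.81 in replicate 2, and 120.5 copies of its window. The widest single-copy member, 16000 bp over the end of Trim71, an RNA-binding regulator of stem cell differentiation, had a signal of 3.54.

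A share of the members held gene starts that the vM1 annotation lacks. The 300-base promoters of RefSeq (GRCm38.p6 table) were placed on NCBIM37 by their sequence, for 25724 of 27025 genes, and none was used for chromosome 18, which left 1443 members. A RefSeq start lay inside 160 of them (11.1%, Wilson 95% interval 9.57 to 12.8%), against 2.56% of all distal regions and 2.25% of other distal regions. A further 70 had one within 5 kb, and 1213 had none. The 89 members with a protein-coding start had a median signal of 16.3, the 71 with a long noncoding RNA start 11.2, and the 1213 without one 6.84. Among single-copy members the values were 14.1 for those holding a start (n = 145) and 10.3 for those with none within 5 kb (n = 653). The single-copy other distal regions with no RefSeq start within 5 kb had 3.36.

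The strongest member with a long noncoding RNA start, chrX:100128601-100130000, held that of Gm5126 and had a signal of 56.3, with 65.6 and 76.9 in the replicates. The other cases printed here held starts of protein-coding genes. The region chr16:28564001-28565400 held a start of Fgf12, a regulator of neuronal sodium channels, and had a signal of 56.1, with 104.0 and 53.3 in the replicates. The region chr13:114083001-114084200 held the start of Cspg4b, a proteoglycan gene, and had 59.3, with 67.2 and 57.2. The region chr19:36421801-36424600 held a start of Pcgf5, a Polycomb group gene, and had 39.1, with 60.8 and 41.9. The regions at Fgf12, Cspg4b and Pcgf5 were among the stronger members in each replicate, but they too were picked by signal in the series list. The region chr6:99469801-99473600 held a start of Foxp1, a forkhead factor, and had 29.9, with 27.5 and 28.4. Outside chromosome 18, of the 50 strongest members 13 held a start, of the 200 strongest 52, and of the 200 weakest 2.

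A larger share of members than of other distal regions was assigned to developmental transcription factors. Each region was assigned its host gene and the gene of the nearest protein-coding TSS, with no limit on distance. A list of developmental transcription factors was met by 95 members (6.31%, Wilson 95% interval 5.19 to 7.66%), at 67 genes, and by 2.47% of other distal regions. These 95 had a median signal of 9.35, and 94 were found in both replicates. Signalling genes of development were met by 32 members (2.13%) and by 1.43% of other distal regions, and pluripotency genes by 9 (0.598%) and 0.886%. For the pluripotency list the share of other distal regions lay inside the members' counting interval of 0.315 to 1.13%. No difference was tested. The lists were chosen with earlier results of these data known. Members lay at a median of 21.1 kb from a TSS and other distal regions at 24.6 kb.

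Smaller lists gave single cases. Imprinted genes were met by 10 members (0.664%, against 0.207%), among them chr10:12780201-12781600, 29.0 kb from Plagl1, a zinc finger gene of growth control, with a signal of 18.3 and replicate values of 18 and 16.6. Protocadherin genes, which encode adhesion molecules of neurons, were met by 10 members (0.664%, against 0.0525%), and 3 of the 10 were single-copy. Of the 58 protocadherin genes listed, 25 were in the annotation, so a start of a missing one could count as distal. Pcdha11 held 6 members and Pcdhgc5 held 3, and both genes lie on chromosome 18, where no RefSeq start was placed. The 2 strongest of the 10 were among these members. Hox genes were met by 3 members (0.199%, against 0.0292%), all single-copy, and 39 of the 52 listed Hox genes were in the annotation. Near Otx2, a homeobox factor of the primed state, chr14:49293201-49295200 had 14.3, with 23.0 and 12.4. Near Dll4, a Notch ligand, chr2:119163001-119164400 had 21.3, with 22.6 and 20.8.

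Single-copy members far from an annotated TSS, some of them inside long genes, were not the weaker ones. Those 5 to 10 kb from a TSS had a median of 10.1 (n = 269), those at 10 to 50 kb 10.4 (n = 465) and those beyond 50 kb 13.2 (n = 148). Over all members the median beyond 50 kb was 3.83 (n = 406), where many-copy windows were frequent.

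Short sequence motifs were counted on both strands of the most CpG-rich 500-bp window of single-copy regions. GGGCGG, the core of the GC box bound by SP1 and KLF factors, was present in 73.0% of members, 27.5% of other distal regions, 88.3% of CpG-rich regions at a TSS and 22% of distal islands without a region. CCGGAAGT, a core of ETS sites, was present in 2.72%, 1.86%, 8.40% and 1.26%. The other distal share of 1.86% lay inside the members' counting interval, 1.84 to 4.02%. CACGTG, the E-box core, was present in 15.8%, 12.6%, 13.4% and 8.18%. Of these 3 motifs, which all hold a CpG, GGGCGG thus had the widest gap in percentage points between members and other distal regions. The NRF1 core, which also holds CpGs, was rarer. It was present in 1.25% of members (interval 0.698 to 2.22%), 0.365% of other distal regions and 2.34% of TSS regions. The other distal shares of the NRF1 core and of CACGTG lay below the members' counting intervals, which for CACGTG was 13.5 to 18.3%. GGGCGG was therefore not the only CpG motif whose share differed. TATAAA, the TATA element, was present in 5.78% of members and 20.1% of other distal regions. AAGATGGC, the YY1 core, was present in 2.49% of members, 3.81% of other distal regions and 6.22% of TSS regions. ATGCAAAT, the octamer of POU factors, was present in 1.81%, 2.66% and 0.818%. The windows differ in GC, with medians of 65% for these members, 50.8% for other distal regions and 70.4% for TSS regions. For the distal islands without a region the median was 57.4%. The shares describe letters in windows and not binding.

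The cell type was checked at gene starts in the same list. Of 10 markers of embryonic stem cells, 9 had a region at a TSS in the series list and in each replicate list, with signals of 11.0 to 31.6 in the series list, and Nanog had none. Of 8 fibroblast markers 3 had one (7.56 to 14.4), and of 5 blood markers 1 had one (15.5). The share over all annotated genes is not given, so these counts lack a background. H3K4me3 at a start does not show that the gene is transcribed, and the part of other cells in the members' values was not tested.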

How the data were processed

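The data are lists of H3K4me3 regions from 2 biological replicates of E14TG2a.4 cells. The authors' lists on mm9 in the broadPeak format were used, 1 per replicate and 1 for the whole series. Peak caller, aligner, settings and the alignments behind the series list remain not given in the sources used here. Signal in the deposited lists is a ratio per region, with an unstated denominator. The authors also deposited a p-value and a q-value per region. The lists on mm10 were not used here, since the rule is in mm9 coordinates. No read counts were used, so the depth of each library is unknown.

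Distances were taken to every TSS of GENCODE vM1. CpG windows of 500 bp were moved in steps of 20 bp within each region of NCBIM37. A region without a qualifying window was described by the window of highest CpG ratio, and the others by the qualifying window with the most CpGs. Copies were counted from stretches of 30 bases taken every 10 bases. RefSeq promoters were placed where at least 295 of 300 bases were identical at 1 site. A region was found in a replicate when they shared at least 1 base. Its replicate signal was the highest among the overlapping regions of that replicate's list, each over its own edges. Shares carry Wilson 95% intervals (scipy 1.17.1). The functions were tested on simulated sequence. Members and lists were chosen with earlier results of these data known.

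Named regions were the 8 strongest, the 5 widest, the 5 with the greatest length covered by qualifying windows and the strongest in each place class. Also named were the strongest found in neither replicate, the weakest found in both, those at the limits, and the 2 strongest per gene list. Not all are printed. Further strong coding, intronic, many-copy and RefSeq-start members were chosen after their values were seen. Sequences were limited, after seeing the data, to single-copy windows, and strong members with a RefSeq coding start, on chromosome 18 or beside a printed one were passed over.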

Additional observations from a re-analysis of the deposited data

How the results depend on the processing

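Each of the 6 results was recomputed under other settings, 75 values in all. Of these, 34 stayed close (within 1 SD of the replicates, or the counting interval, and for counts a preset factor), 39 moved and 2 changed sign. With only the stronger q-values, the difference in median signal became -0.14 and the difference in the share found in both replicates -0.183 percentage points, while distal islands with a region came to 69.3% and the width difference to 1200 bp. The cause was not tested.

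With the limit at 2 kb there were 1887 members, 39.9% of members lay in genes and 81.2% of islands had a region. At 10 kb these were 1131, 30.3% and 77.7%, with differences of 28.9 points and 1200 bp. Counting distance from coding TSSs gave 2042 members, with 43.1% in genes. These counts differed from the main 1505 but lay within the preset factor, so they were among those called close. The looser composition (0.6 and 50%) gave 9531 members, a difference of 31.6 points, 29.5% in genes, 68.2% of islands and 600 bp. The stricter one (0.85 and 60%) gave 464 members, a signal difference of 9.92, 32 points, 39.7%, 81.8% and 800 bp. Leaving out each replicate in turn gave signal differences of 3.93 to 5.04, 35.1 to 35.6% in genes, 74.1 to 75% of islands, 1414 to 1433 members and 800 bp. Against all other distal regions the differences were 31.4 points and 1200 bp, 76.9% of islands were covered to at least 50%, and 35.3% of members overlapped a gene at all.

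Settings added after seeing the data were single-copy windows (882 members, a signal difference of 7.30, 38.8 points, 42.5% in genes, 86.5% of islands, 600 bp), no region with a RefSeq start (36.4% in genes, 78.2% of islands) and no chromosome 18, which moved none. Soft-masked repeats were not run, because the genome holds 0 lower-case bases. No paired analysis was possible because there is 1 group. Depth is unknown, so islands without a region may hold signal below the threshold.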

Other observations

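Some strong regions differed between the replicates or were missing from them. The strongest member found in neither replicate list, chr5:35742201-35742800, lay 10.4 kb from Hmx1, a homeobox gene, was 600 bp wide and had a signal of 25.9 in the series list, with a RefSeq long noncoding RNA start inside it. Next came chr9:89774201-89775600, 29.0 kb from Rasgrf1, an imprinted exchange factor gene, with 12.2, and chr5:96403001-96403600 near Cxcl13, a chemokine gene, with 4.69. The members in Agap1 and at Fgf12 had 104.4 and 104.0 in replicate 1 against 44.2 and 53.3 in replicate 2.

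Neighbouring members were at most 10 kb apart in 65 pairs, a count without a background. Of 437 protein-coding genes that held 484 members, 405 held 1 and 7 held 3 or more. The 7 were Gm20388 with 7, Pcdha11, a protocadherin gene, with 6, Ostm1, which encodes a subunit of a lysosomal chloride transporter, with 4, and Bcor, Celf4, Pcdhgc5 and Spnb4 with 3 each. Chromosome 7 had 120 members and the Y chromosome 3, also counts without a background.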
